A study of Homo sapiens with 5 samples.

Results

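The genes described are the core splicing factors, the SR proteins and the heterogeneous nuclear ribonucleoproteins (hnRNPs) measured in HEK293T cells with and without ascorbic acid. They were chosen by symbol, as the SF3A, SF3B, PRPF, SNRP, SNRNP, SRSF, U2AF and HNRNP genes with at least 20 counts summed over the 5 libraries, and 78 of the 28278 symbols in the table met this rule. Of these, 41 encode core proteins of the spliceosome, 12 are SR proteins, 22 are hnRNPs and 3 are symbols of HNRNPA1 or HNRNPA3 pseudogenes. A further 7 symbols matched by name and stood at 0 in every library.

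HEK293T is an established line derived from human embryonic kidney. RNA was compared between 3 control libraries, labelled wild type, and 2 libraries of the same line given ascorbic acid (vitamin C), a cofactor that keeps iron reduced for the Fe(II)-dependent dioxygenases. Per the labels' protocols, all cells grew in high-glucose DMEM with serum, and treated cells were seeded for 24 h and then exposed for 24 h or 36 h, depending on the assay, with the medium renewed every 6 h. The dose and which of these times applied to the RNA libraries are not stated. The labels do not state whether each library is its own culture. The p-values therefore rest on variation among these 5 libraries, and that variation may be technical.

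Splicing removes introns from pre-mRNA on the spliceosome, which assembles from small nuclear ribonucleoproteins (snRNPs). U1 pairs with the 5′ splice site, U2 with the branch site, and the U4/U6.U5 tri-snRNP then joins and is remodelled into the catalytic machine. SR proteins mostly bind exonic enhancers and recruit these particles, while hnRNPs coat nascent transcripts and often repress nearby splice sites. Many of these genes, the SR proteins above all, adjust their own mRNA through alternative exons that lead to decay.

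Library totals ran from 35106664 to 57212071 counts, and 71.3 to 75.9% of the counts from 1 to 10 were even in each library, so the number of independent fragments may be smaller than the counts. All 6 HEK293T markers were detected, at a summed 911 to 942 CPM (counts scaled to library size) in the controls and 972 to 1014 CPM in the treated libraries. Of the kidney tubule and glomerulus markers 2 of 6 reached 20 counts, with a summed level of 29.5 to 31.5 CPM in the controls and 22.4 CPM in both treated libraries, and SLC34A1, UMOD, AQP2 and NPHS1 had at most 2 counts in any library. None of 6 fibroblast markers reached 20 counts (0.211 to 0.391 CPM in the controls and 0.289 to 0.678 CPM in the treated libraries), and 2 of 5 keratinocyte markers did (0.639 to 0.693 CPM against 1.57 to 2.25 CPM), with KRT5 and KRT14 at 2 counts or fewer. Of 4 blood markers 2 reached it (73.3 to 77.8 CPM against 80.5 to 88.5 CPM), with PTPRC and CD3E at 2 counts or fewer, and the part of these markers in the results was not tested. In bulk RNA, fewer cells that express a gene and less RNA per cell cannot be told apart.

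Where splicing factor genes changed, they fell, and by a small amount. Of 76 genes that passed the low-count filter, 22 fell with ascorbic acid (28.9%) and 0 rose, against 5.76% of all 15271 tested genes that fell and 8.53% that rose (edgeR's quasi-likelihood test, Benjamini-Hochberg adjusted p below 0.05 over all tested genes). Both shares of all genes moved with level. At 100 CPM or more, where 60 of the splicing genes lay, 16.0% of all tested genes fell and 3.37% rose. The other 54 were not called. Of all 76, 34 had an unadjusted p below 0.05 in edgeR, the 22 called genes among them, and 0 of the 34 were higher. The share of all tested genes at that unadjusted p was not counted. DESeq2 and limma-voom also called 0 higher (against 5.75% and 8.7% of all genes with an adjusted p). They called 27 and 24 lower (against 6.43% and 6.05%). The median log2 fold change was -0.09 for the splicing genes and 0.00 for all tested genes, and 67 of the 76 lay below zero. The decreases that passed were all between 8.62% and 16.2%, with a median of 11%. Both treated libraries lay below every control for 47 of the 76 genes, against 20.4% of all tested genes, and above every control for 0, against 22.6%.

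By class, 15 of 41 core spliceosome genes fell (median log2 fold change -0.12), 7 of 21 tested hnRNP genes fell (median -0.11), and 0 of 12 SR protein genes were called (median -0.05). The groups did not overlap, with treated below control, for 26 of the 41 core genes, 16 of the 21 hnRNPs and 5 of the 12 SR proteins. Of all tested genes 5.76% fell, and 20.4% had both treated libraries below every control. The share that fell was larger among highly expressed genes, 16.0% at 100 CPM or more and 20.5% at 200 CPM or more. The median control level was 164 CPM for core genes, 698 CPM for hnRNPs and 316 CPM for SR proteins. The share with both treated libraries below every control was not split by level. The difference between the classes was itself not tested. Without control library 1, 6 core genes and 0 hnRNPs fell (2.21% of all genes did), and with the trend of fold change with expression removed, 4 and 0 fell (3.34% of all). Against a fold of 1.2, 0 splicing genes were called lower (0.072% of all).

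**Figure D1:**
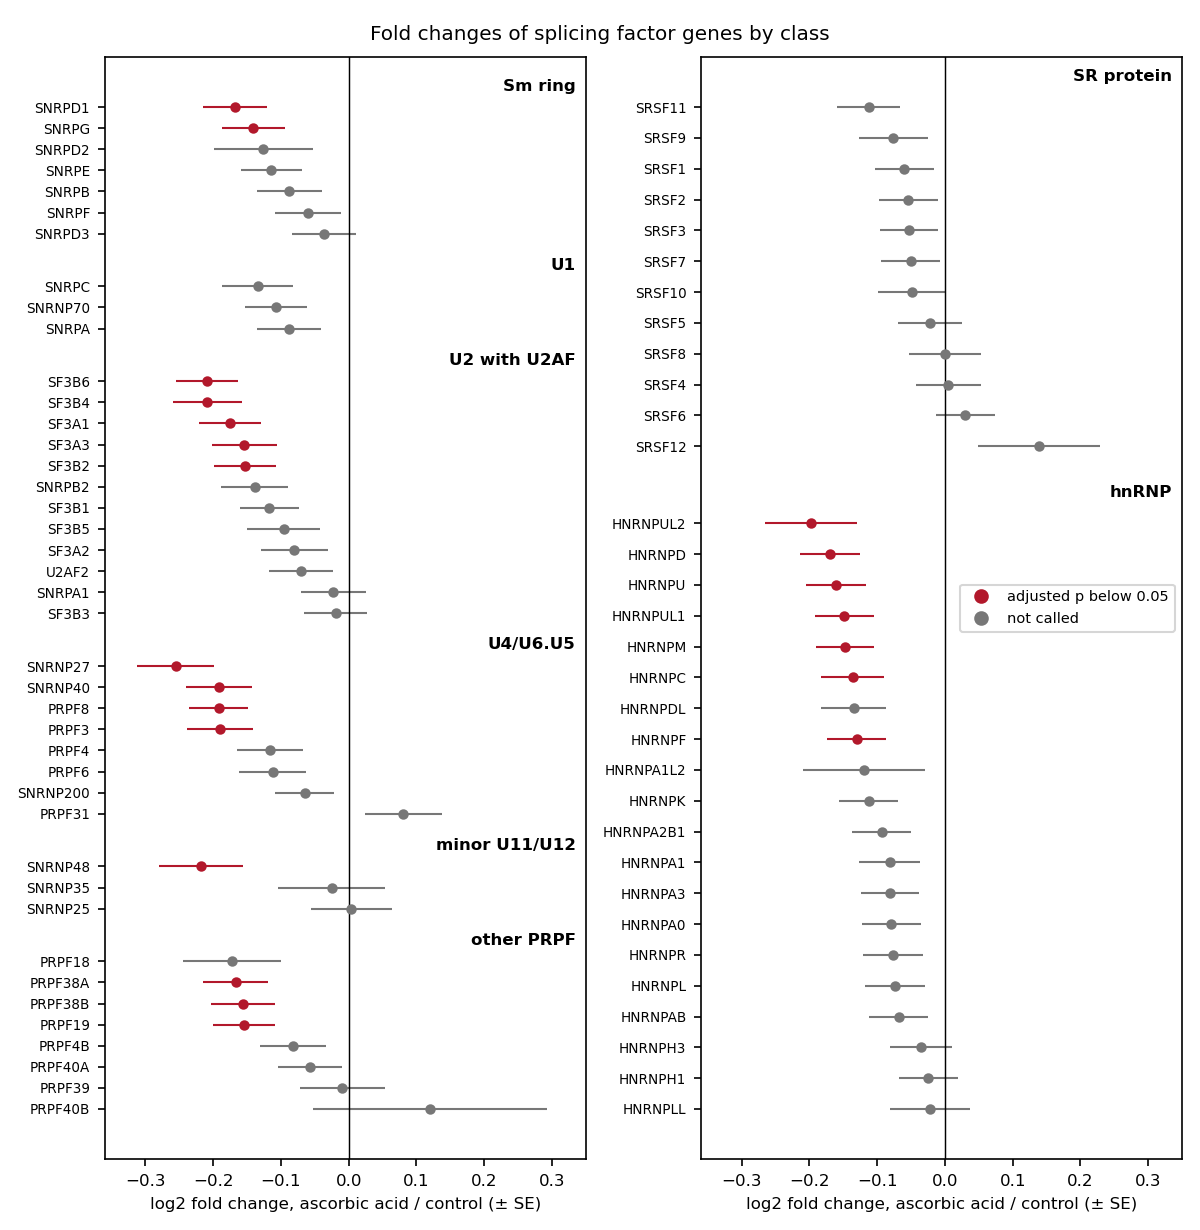
Log2 fold change, ascorbic acid against control, with its standard error for each tested splicing gene by class (HNRNPCL1 and the pseudogene symbols are not drawn). Red points passed an adjusted p of 0.05. All 22 red points lie below zero, and none is among the SR proteins.

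Together, the 78 genes made up 3.22 to 3.25% of all counts in the controls and 3.10% in both treated libraries. The core spliceosome genes summed to 10614, 10467 and 10637 CPM in controls 1 to 3 and to 9934 and 9575 CPM in treated libraries 1 and 2, which is 7.74% lower. The hnRNP genes summed to 18191, 17580 and 17740 CPM in the controls and 16638 and 16473 CPM with ascorbic acid, 7.18% lower. The SR protein genes summed to 4238, 4312 and 4310 CPM in the controls and 4121 and 4182 CPM with ascorbic acid, 3.15% lower. Neither treated library overlapped the controls for any of these sums, and no test was made on them. Tested genes in general also lay lower at such levels. Their median log2 fold change was -0.07 from 200 to 500 CPM and -0.08 from 500 to 1000 CPM. The sums were not compared with genes of like level.

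**Figure D2:**
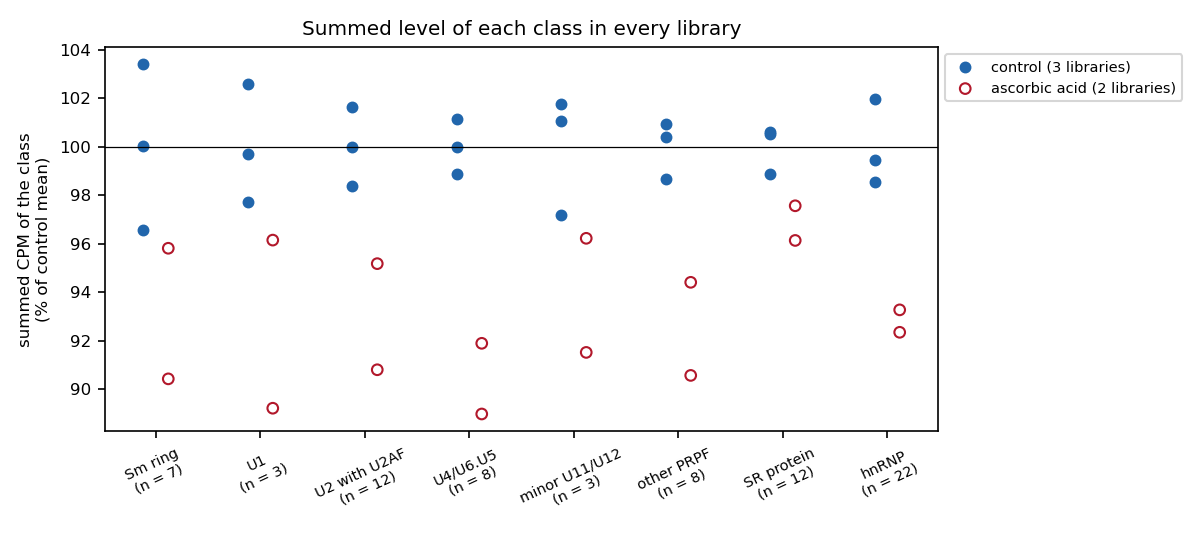
Summed CPM of each class in every library, as percent of the control mean; the class size is given under each name. The treated libraries (open circles) lie below every control (filled circles) in each class drawn (the pseudogene symbols, whose groups overlap, are not), furthest for the U4/U6.U5 genes at 9.55% lower and least for the SR proteins at 3.15% lower.

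The Sm proteins form a ring of 7 subunits around the U1, U2, U4 and U5 small nuclear RNAs and carry the snRNP back into the nucleus. By edgeR's test SNRPD1 and SNRPG fell and the other 5 of the 7 genes were not called, with a median log2 fold change of -0.11. Of all tested genes 5.76% fell, and at 100 CPM or more 16.0% did. SNRPD1 (chr18:21612267-21633524 on the plus strand of GRCh38) measured 168, 160.2 and 156 CPM in controls 1 to 3 and 144 CPM in both treated libraries, a decrease of 11% (log2 fold change -0.17 ± 0.05 SE, edgeR adjusted p = 0.0167). SNRPG measured 189, 194 and 200.1 CPM in the controls and 180.2 and 172 CPM with ascorbic acid, 9.28% lower (edgeR adjusted p = 0.0398). In both genes the treated libraries lay below every control. SNRPB, the Sm gene with the highest level per length at a control mean of 353 CPM per kb of exon, had 409, 394 and 418 CPM in the controls and 405 and 362 CPM with ascorbic acid, so that its groups overlapped (log2 fold change -0.09 ± 0.05, edgeR adjusted p = 0.238). The treated levels of SNRPE, 177 and 182 CPM, were below its controls of 193 to 195 CPM (edgeR adjusted p = 0.0861). Those of SNRPD2, 391 and 348 CPM, overlapped a wide control range of 359.9 to 438 CPM. The calls on SNRPD1 and SNRPG ended without control 1 or control 2, and that on SNRPG also without control 3 or treated library 2 (adjusted p of 0.0513 to 0.162 in these fits). Both also ended with library totals (adjusted p = 0.0726 for SNRPD1, 0.154 for SNRPG) and with the expression trend removed (0.114, 0.240). That on SNRPG also ended with the replicate block (0.0967), a 5 CPM filter (0.0848) and GC and length trends removed (0.149). Conversely, SNRPE was called by DESeq2 (adjusted p = 0.0435). SNRPB was called with GC and length trends removed (0.0333) or without treated library 1 (0.0274), and SNRPD2 was called without control 1 (0.0257).

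None of the 3 proteins specific to the U1 snRNP was called by edgeR, DESeq2 or limma-voom, though 2 had an unadjusted p below 0.05 and the treated libraries lay below every control in all 3 (20.4% of all tested genes did). With GC and length trends removed all 3 were called lower (9.7% of all genes were), and SNRPC (adjusted p = 0.0320) and SNRNP70 (adjusted p = 0.0279) were called without treated library 1. SNRPC, the zinc-finger protein that stabilises U1 at the 5′ splice site, had 149.8, 149 and 166 CPM in the controls and 147 and 135 CPM with ascorbic acid (log2 fold change -0.13 ± 0.05, edgeR adjusted p = 0.0854). SNRNP70, which binds the first stem-loop of U1 RNA, had 474, 466 and 486 CPM against 459 and 423 CPM (-0.11 ± 0.05, edgeR adjusted p = 0.113), and at 287 CPM per kb it was the highest of the 3. SNRPA had 139 to 147 CPM in the controls and 136 and 131 CPM with ascorbic acid (edgeR adjusted p = 0.231).

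Among the 12 genes of the U2 snRNP and U2AF, 5 fell, all from the SF3a and SF3b complexes that clamp U2 onto the branch site. The median log2 fold change was -0.13. Of all tested genes 5.76% fell, and at 100 CPM or more 16.0% did. SF3B6, the small subunit that contacts the branch-point adenosine (chr2:24067584-24076443, minus strand), measured 213, 205 and 199 CPM in the controls and 176 and 179.8 CPM with ascorbic acid. The mean was 206 ± 7.18 CPM (SD, n = 3) in controls and 178 ± 2.66 CPM (SD, n = 2) in treated cells, a decrease of 13.5% (log2 fold change -0.21 ± 0.05, edgeR adjusted p = 0.00268). The lowest control stood well above the higher treated library. SF3B4, which touches pre-mRNA upstream of the branch site (chr1:149923317-149928344, minus strand), fell from 152, 137 and 143 CPM to 129 and 120.3 CPM, also by 13.5% (-0.21 ± 0.05, edgeR adjusted p = 0.00617). SF3A1, the SF3a subunit that also binds U1 RNA, had 364, 358 and 362 CPM in the controls and 335 and 305 CPM with ascorbic acid, 11.4% lower (edgeR adjusted p = 0.00981). Its treated libraries differed from each other more than its controls did.

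SF3B2 fell from 437, 419 and 437 CPM to 403 and 372 CPM (10.1%, edgeR adjusted p = 0.0232). SF3A3 fell from 283, 255 and 259.5 CPM to 241 and 237 CPM (10.1%, edgeR adjusted p = 0.0289). Both had treated libraries below every control. SF3B1, the scaffold that encloses the branch-site helix and a frequent target of mutation in myelodysplasia, had 564, 575 and 562 CPM in the controls and 511 and 534 CPM with ascorbic acid, a log2 fold change of -0.12 ± 0.04 that missed the threshold in edgeR (adjusted p = 0.0692) and passed it in DESeq2 (adjusted p = 0.0180) and without treated library 2 (0.0374). U2AF2, the large U2AF subunit that reads the polypyrimidine tract, had overlapping groups (531, 512 and 550.4 CPM against 528 and 484 CPM), and its 95% interval of the log2 fold change ran from -0.17 to 0.03 (edgeR adjusted p = 0.340, and 0.0114 with GC and length trends removed). SF3B3 lay nearest to no change, with 842, 797 and 776 CPM against 825 and 765 CPM and an interval from -0.11 to 0.08 (edgeR adjusted p = 0.832). SF3B6 kept its call in each leave-one-out fit. SF3B4 lost it without control 1 or treated library 2, SF3A1 without treated library 2, SF3A3 without control 1 or treated library 2, and SF3B2 without control 1, control 3 or treated library 2 (adjusted p of 0.058 to 0.207 in these fits). With library totals SF3B2 and SF3A3 were no longer called (adjusted p = 0.0823 and 0.107), nor SF3A3 with a 5 CPM filter (0.0641). With the expression trend removed, SF3A1, SF3B2 and SF3A3 were not called (adjusted p of 0.0959 to 0.218), while SF3B6 (-0.15, adjusted p = 0.0284) and SF3B4 (-0.16, adjusted p = 0.0439) were.

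**Figure D3:**
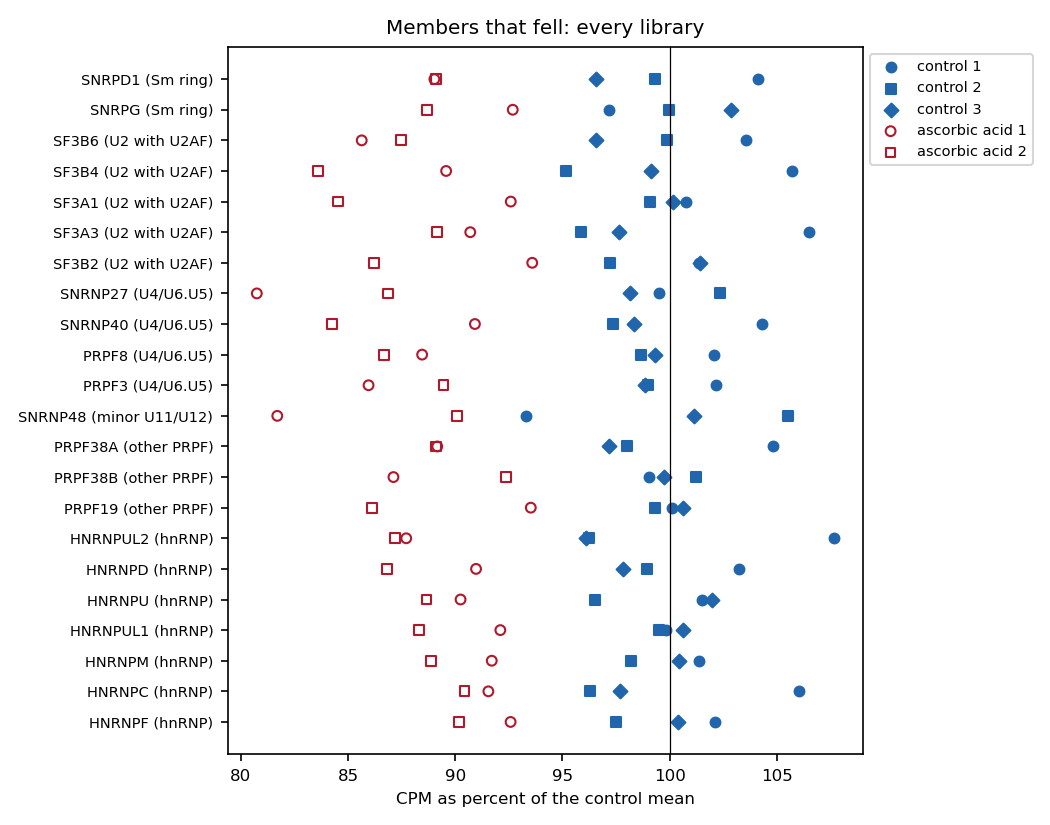
CPM of the 22 genes that fell, in each of the 5 libraries, as percent of the control mean (vertical line at 100). Open red symbols are the 2 ascorbic acid libraries and filled blue symbols the 3 controls; the red symbols lie to the left of every blue one in all 22 genes, and 2 shapes of one colour show how far libraries of a group differ.

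Of the 8 genes of the U4/U6.U5 tri-snRNP 4 fell, and the median log2 fold change was -0.15. Among all tested genes 5.76% fell, and at 100 CPM or more 16.0% did. SNRNP27, a tri-snRNP protein with an RS domain like that of SR proteins (chr2:69893560-69905575, plus strand), measured 62.1, 63.9 and 61.3 CPM in the controls and 50.4 and 54.2 CPM with ascorbic acid, with means of 62.4 ± 1.35 CPM (SD, n = 3) for controls and 52.3 ± 2.7 CPM (SD, n = 2) for treated cells. This decrease of 16.2% was the largest among the called splicing genes (log2 fold change -0.26 ± 0.06, edgeR adjusted p = 0.00269). PRPF8, the large U5 protein that forms the cavity of the catalytic centre (chr17:1650629-1684882, minus strand), fell from 1479.9, 1431 and 1439.9 CPM to 1283 and 1257 CPM, by 12.4% (-0.19 ± 0.04, edgeR adjusted p = 0.00326). It also had the highest level per length of the 8 genes, 194 CPM per kb. SNRNP40, a WD-repeat protein of U5, fell from 192, 179 and 181 CPM to 167 and 155 CPM (12.4%, edgeR adjusted p = 0.00793), and PRPF3, a U4/U6 protein mutated in retinitis pigmentosa, from 119.6, 116 and 116 CPM to 101 and 105 CPM (12.3%, edgeR adjusted p = 0.00862).

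The helicase SNRNP200, which unwinds U4 from U6, had 670.4, 679.7 and 694 CPM in the controls and 664 and 638 CPM with ascorbic acid, with an interval of the log2 fold change from -0.15 to 0.02 (edgeR adjusted p = 0.343). PRPF31, another retinitis pigmentosa gene and a U4/U6 protein, had 86.5, 92.7 and 98.0 CPM against 103 and 91.8 CPM, so its groups overlapped (log2 fold change 0.08 ± 0.06, edgeR adjusted p = 0.375). About 11.7% of its exon length overlaps TFPT on the other strand. SNRNP27 kept its call without each library and with the expression trend removed (-0.23, adjusted p = 0.00876). PRPF8, SNRNP40 and PRPF3 lost theirs with the trend removed (adjusted p = 0.0555, 0.0606 and 0.0513). SNRNP40 (without control 1 or treated library 2) and PRPF3 (without control 1 or treated library 1) also lost it on leaving out a library, at adjusted p of 0.0624 to 0.0804.

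Of the 3 proteins of the minor U11/U12 particle, which recognises the rare minor-class introns, SNRNP48 fell and 2 were not called. Among all tested genes from 50 to 100 CPM, 9.03% fell. SNRNP48, a U11 protein at the 5′ splice site (chr6:7590199-7611967, plus strand), measured 55.7, 62.9 and 60.3 CPM in the controls and 48.7 and 53.7 CPM with ascorbic acid, 14% lower (log2 fold change -0.22 ± 0.06, edgeR adjusted p = 0.0167). The gap between control 1 and treated library 2 was small, and the call ended without control 2 (adjusted p = 0.103) or treated library 1 (adjusted p = 0.188), and with library totals (adjusted p = 0.0652). SNRNP25, also of U11 and the highest of the 3 per length at 57.4 CPM per kb, had 62.0, 60.8 and 64.2 CPM against 67.0 and 57.8 CPM, so the treated libraries stood on either side of the controls (edgeR adjusted p = 0.977).

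Among the 8 other PRPF genes, 3 fell. Of all tested genes 5.76% did, and at 100 CPM or more 16.0%. PRPF38A, which enters with the tri-snRNP and is needed for its activation, went from 181, 169.6 and 168 CPM to 154 CPM in both treated libraries (10.9%, edgeR adjusted p = 0.0173). PRPF38B, its paralog, went from 158, 161 and 159 CPM to 139 and 147 CPM (10.3%, edgeR adjusted p = 0.0241). PRPF19, the ubiquitin ligase of the activated spliceosome and at 136 CPM per kb the highest of these genes, went from 293, 291 and 295 CPM to 274 and 252 CPM (10.2%, edgeR adjusted p = 0.0211). All 3 calls ended without control 1, that on PRPF19 also without control 2, control 3 or treated library 2, and that on PRPF38B also without control 2 or treated library 1 (adjusted p of 0.0507 to 0.19 in these fits). All 3 also ended with library totals (adjusted p of 0.0736 for PRPF38A, 0.0818 for PRPF19 and 0.110 for PRPF38B) and with the expression trend removed (0.122, 0.172 and 0.150), and that on PRPF38B with a 5 CPM filter (0.0573).

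The 250 bases before and 50 after the annotated start were available from RefSeq (GRCh38.p14) for 66 of the 78 genes. Windows were searched on both strands for an ETS motif (CCGGAAG), the Sp1 GC box (GGGCGG), the CCAAT box (CCAAT), the E-box (CACGTG) and a TATA box (TATAAA), each counted on its own even where matches of different motifs overlap. A match is a description of letters and not a site. The 150 bases upstream of the RefSeq start are shown for genes that fell, 5 of the core spliceosome and 2 hnRNPs, because they hold the smallest adjusted p-values of those classes, with SNRNP48 added as the called gene of the minor particle. Each runs 5′ to 3′ on the gene's strand, and capitals mark matches of the ETS, GC box and CCAAT motifs in either orientation. The stretches are SF3B6 at chr2:24076327-24076476 (minus), SF3B4 at chr1:149927804-149927953 (minus), SNRNP27 at chr2:69893806-69893955 (plus), SNRNP48 at chr6:7590048-7590197 (plus), PRPF8 at chr17:1684868-1685017 (minus), HNRNPD at chr4:82373992-82374141 (minus) and HNRNPU at chr1:244864544-244864693 (minus). RefSeq and GENCODE 29 place the starts differently, and every stretch but that of SNRNP48 lies partly or wholly inside the GENCODE gene bounds given with the genes.
SF3B6: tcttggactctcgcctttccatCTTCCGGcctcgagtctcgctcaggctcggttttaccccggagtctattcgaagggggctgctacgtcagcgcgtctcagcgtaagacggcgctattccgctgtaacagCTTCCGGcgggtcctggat
SF3B4: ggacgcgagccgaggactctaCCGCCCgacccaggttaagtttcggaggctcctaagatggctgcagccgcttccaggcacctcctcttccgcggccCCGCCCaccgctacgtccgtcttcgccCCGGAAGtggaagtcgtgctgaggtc
SNRNP27: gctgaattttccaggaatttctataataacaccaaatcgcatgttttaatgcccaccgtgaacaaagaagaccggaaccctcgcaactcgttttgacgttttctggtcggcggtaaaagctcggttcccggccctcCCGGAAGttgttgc
SNRNP48: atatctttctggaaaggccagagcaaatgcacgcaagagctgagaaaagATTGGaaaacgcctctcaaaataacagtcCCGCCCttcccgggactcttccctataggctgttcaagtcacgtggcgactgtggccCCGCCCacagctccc
PRPF8: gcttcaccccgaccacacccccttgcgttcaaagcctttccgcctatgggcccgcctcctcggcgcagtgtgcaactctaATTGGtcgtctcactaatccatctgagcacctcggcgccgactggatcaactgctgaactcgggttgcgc
HNRNPD: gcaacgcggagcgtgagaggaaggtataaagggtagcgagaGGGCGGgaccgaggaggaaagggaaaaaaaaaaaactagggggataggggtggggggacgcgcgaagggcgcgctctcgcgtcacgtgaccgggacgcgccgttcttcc
HNRNPU: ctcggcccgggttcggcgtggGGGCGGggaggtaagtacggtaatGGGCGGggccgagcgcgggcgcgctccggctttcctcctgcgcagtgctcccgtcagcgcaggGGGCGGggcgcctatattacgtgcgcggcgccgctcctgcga

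SF3B6 has ETS matches at -128 and -19 from the start, SF3B4 has one at -26 with GC boxes at -129 and -53, and SNRNP27 has one at -14. The PRPF8 stretch holds a CCAAT match at -70 and no ETS match, and SNRNP48 holds a CCAAT match at -101 and GC boxes at -72 and -15. HNRNPD holds 1 GC box, at -109, and HNRNPU holds 3, at -129, -105 and -42. Over the whole window, the ETS motif was present in 18 of 34 core spliceosome genes (52.9%), in 2 of 11 SR protein genes (18.2%) and in 3 of 21 hnRNP genes (14.3%), against 18.2% of the 11516 tested genes with a window and 10.7% of all 27305 promoters. The CCAAT box stood in 66.7% of hnRNP windows, 44.1% of core windows and 18.2% of SR windows (36.8% of tested genes, 35.7% of all promoters), and the E-box in 7 of 21 hnRNP windows (33.3%) against 9.99% of tested genes and 7.43% of all promoters. Core windows held the E-box in 2 of 34 (5.88%) and SR windows in 0 of 11. The GC box was in 63.6% of the splicing windows and 69.3% of those of tested genes (44.6% of all promoters), and the TATA box in 9.09% against 5.89% (12% of all promoters). Genes that fell held the ETS motif in 9 of 20 windows (45%) and genes that were not called in 14 of 45 (31.1%), a difference that was not tested.

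**Figure D4:**
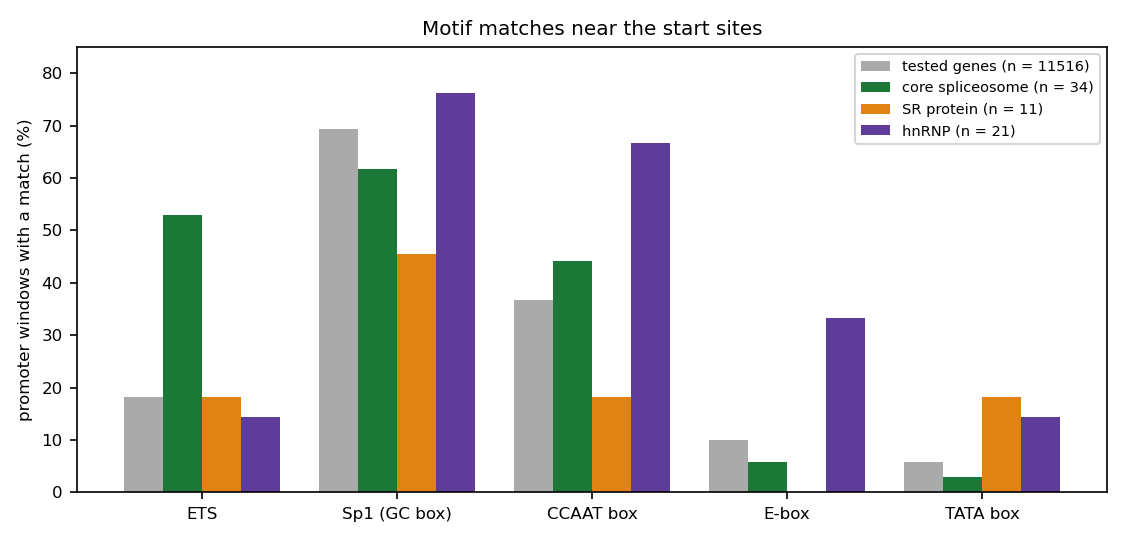
Percent of promoter windows with at least 1 match of each motif on either strand, for tested genes (grey) and for the core spliceosome, SR protein and hnRNP genes. The ETS bar of the core genes (52.9%) and the E-box bar of the hnRNPs (33.3%) stand above the grey bars (18.2% and 9.99%).

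None of the 12 SR protein genes was called by edgeR, DESeq2 or limma-voom, and 1, SRSF11, had an unadjusted p below 0.05. SRSF11, a partner of U2AF, had 357, 370.1 and 370.2 CPM in the controls and 322 and 355 CPM with ascorbic acid, a log2 fold change of -0.11 ± 0.05 with a 95% interval from -0.21 to -0.02 (edgeR adjusted p = 0.105). Its treated libraries were unlike each other, and without treated library 2 it was called (-0.19, adjusted p = 0.0120). SRSF1, the founding SR protein and the highest of the class at 291 CPM per kb, had 917, 947 and 929.6 CPM in the controls and 884 and 902 CPM with ascorbic acid, with an interval from -0.15 to 0.03 (edgeR adjusted p = 0.388). Both treated libraries lay below its controls, by a few percent.

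SRSF2 had 527, 519 and 547 CPM in the controls and 512 and 511 CPM with ascorbic acid (interval -0.14 to 0.04, edgeR adjusted p = 0.452). Some 34.7% of its exon length is shared with MFSD11 on the other strand, so its counts are uncertain. SRSF3, a factor that also couples splicing to mRNA export, had 804, 802 and 800.0 CPM against 791 and 756 CPM (edgeR adjusted p = 0.456). SRSF7, its close relative and fellow export adaptor, had 402, 423 and 410.4 CPM against 395 and 400.5 CPM (edgeR adjusted p = 0.487). Levels of SRSF6 (376, 379 and 378 CPM against 376 and 395 CPM, log2 fold change 0.03 ± 0.04, edgeR adjusted p = 0.705) and SRSF8 (73.7, 72.9 and 76.7 CPM against 76.1 and 72.6 CPM, interval -0.11 to 0.11) overlapped between the groups. SRSF12, the lowest of the class, had 13.0, 15.1 and 13.98 CPM in the controls and 14.6 and 16.2 CPM with ascorbic acid, and its interval ran from -0.04 to 0.32 (edgeR adjusted p = 0.322). SRSF4, SRSF5, SRSF9 and SRSF10 had adjusted p-values of 0.962, 0.799, 0.344 and 0.571 in edgeR's test, and 41.2% of the exon length of SRSF9 overlaps GATC on the other strand. The lower bounds of the 95% intervals differed between the 12 genes, from -0.21 on the log2 scale for SRSF11, a decrease of 13.4%, to -0.09 for SRSF4, -0.06 for SRSF6 and -0.04 for SRSF12.

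Of the 21 tested hnRNP genes 7 fell, with decreases from 8.62% to 12.8%. Among all tested genes 5.76% fell, and at 200 CPM or more 20.5% did. HNRNPD, also known as AUF1, which binds AU-rich elements (chr4:82352498-82374503, minus strand), measured 944, 904 and 895 CPM in the controls and 832 and 794 CPM with ascorbic acid, with means of 914 ± 26 CPM (SD, n = 3) for controls and 813 ± 26.8 CPM (SD, n = 2) for treated cells, 11.1% lower (log2 fold change -0.17 ± 0.04, edgeR adjusted p = 0.0100). HNRNPU, the nuclear-matrix protein also called scaffold attachment factor A (chr1:244840638-244864560, minus strand), fell from 1932, 1837 and 1940.4 CPM to 1717 and 1687 CPM, by 10.5% (-0.16 ± 0.04, edgeR adjusted p = 0.0141). Its relative HNRNPUL1 fell from 566, 564 and 571 CPM to 522 and 501 CPM (9.79%, edgeR adjusted p = 0.0201). These 3 genes had treated libraries below every control.

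HNRNPM fell from 805, 779.5 and 798 CPM to 728 and 705 CPM (9.72%, edgeR adjusted p = 0.0210). HNRNPF, which binds runs of G, fell from 432, 413 and 425 CPM to 392 and 382 CPM (8.62%, edgeR adjusted p = 0.0440). HNRNPC, which binds uridine tracts and shields Alu exons from splicing, had 2014, 1829.7 and 1856 CPM in the controls and 1739 and 1718 CPM with ascorbic acid (9.02% lower, edgeR adjusted p = 0.0474), with control 1 standing above the other controls. HNRNPUL2 was the lowest of those called, at 38.9, 34.7 and 34.7 CPM against 31.7 and 31.5 CPM (12.8%, edgeR adjusted p = 0.0489). It was not called by DESeq2 (adjusted p = 0.0737), and 45.7% of its exon length is shared with the readthrough symbol HNRNPUL2-BSCL2, which stood at 0. All 7 calls ended without control 1 and with the expression trend removed. With library totals those on HNRNPUL1, HNRNPM, HNRNPF, HNRNPC and HNRNPUL2 did (adjusted p of 0.0774 to 0.163). With a 5 CPM filter those on HNRNPF (edgeR adjusted p = 0.0926), HNRNPC (0.102) and HNRNPUL2 (0.0871) ended. That on HNRNPF also ended with no filter (0.0505) and with the replicate block (0.0566). That on HNRNPC also ended with GC and length trends removed (0.0721). Those on HNRNPUL1, HNRNPM, HNRNPF, HNRNPC and HNRNPUL2 ended without control 2. Those on HNRNPU, HNRNPUL1, HNRNPM, HNRNPF and HNRNPC ended without control 3, those on HNRNPF, HNRNPC and HNRNPUL2 without treated library 1, and all but that on HNRNPU without treated library 2 (adjusted p of 0.0528 to 0.282 in these fits).

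The hnRNPs with the highest levels per length were not called by edgeR. HNRNPA1, at 610.1 CPM per kb the highest of all the splicing genes per length, had 2711, 2567 and 2557 CPM in the controls and 2535 and 2402 CPM with ascorbic acid (log2 fold change -0.08 ± 0.05, edgeR adjusted p = 0.245). HNRNPK, a KH-domain protein with 557 CPM per kb, had 1730.0, 1675 and 1679 CPM against 1578 and 1557 CPM (-0.11 ± 0.04, edgeR adjusted p = 0.0795). It was called by DESeq2 (adjusted p = 0.0149) and limma-voom (0.0417). HNRNPA2B1, a close relative of HNRNPA1, had 1989, 1975 and 2000.4 CPM against 1832 and 1896 CPM (-0.09 ± 0.04, edgeR adjusted p = 0.154). It was called by DESeq2 (adjusted p = 0.0390). For these 3 genes the treated libraries lay below every control. HNRNPDL, the paralog of HNRNPD, had 500.4, 508 and 484 CPM in the controls and 427 and 479 CPM with ascorbic acid (-0.13 ± 0.05, edgeR adjusted p = 0.0569). It passed in 7 alternatives, DESeq2 (adjusted p = 0.0389) and limma-voom (0.0433) among them. HNRNPH1, a binder of G-runs, had 806, 832 and 829 CPM against 787 and 829.7 CPM (-0.02 ± 0.04, edgeR adjusted p = 0.767). HNRNPCL1, the lowest of the tested hnRNPs, had 0.551 to 1.16 CPM in the controls and 0.639 and 0.655 CPM with ascorbic acid, and its groups overlapped (edgeR adjusted p = 0.365). HNRNPA1, HNRNPC and several Sm genes have processed pseudogenes with near-identical sequence, and how reads shared with these were counted is not given in the sources used here. HNRNPA1P10, one such symbol, had 6.73 to 7.89 CPM in the controls and 8.18 and 6.69 CPM with ascorbic acid (edgeR adjusted p = 0.904).

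Just inside the limit of 20 counts lay HNRNPH2 with 25 counts in all (5, 6 and 7 in the controls and 3 and 4 with ascorbic acid) and HNRNPA1P33 with 39 (10, 8 and 4 against 13 and 4), and neither passed the filter for testing. Outside it were SNRPN, U2AF1, HNRNPCL2, HNRNPCL3, HNRNPCL4, SNRPD2P2 and HNRNPKP3, listed at 0 in every library. U2AF1, the small U2AF subunit that reads the 3′ splice site, has a near-identical copy, U2AF1L5, also listed at 0. SNRPN shares 10.3% of its exon length with SNURF, also listed at 0. HNRNPH2 shares 16.3% of its exon length with the readthrough symbol RPL36A-HNRNPH2, which is listed at 0 too. These zeros are values of the table, and whether the genes are expressed was not tested.

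The fold change of all genes moved with their level. From 0 to 10 CPM the median log2 fold change of tested genes was 0.14 and 0.843% fell, while from 500 to 1000 CPM it was -0.08 and 25.6% fell. At 50 CPM or more, 12.6% of 4707 tested genes fell (median -0.05), against 31.3% of 67 splicing genes (21 of them, median -0.09). At 100 CPM or more the shares were 16.0% of 2371 and 31.7% of 60. At 200 CPM or more they were 20.5% of 913 and 27.5% of 40, so the gap was smaller. The share of tested genes that rose was 10.85% from 0 to 10 CPM, 3.37% at 100 CPM or more and 2.63% at 200 CPM or more. The share of splicing genes that fell was above that of all genes from 100 to 200 CPM (8 of 20 against 13.2%) and close to it from 500 to 1000 CPM (3 of 13, 23.1%, against 25.6%). With the trend removed, the medians were -0.06 for core genes, 0.02 for SR proteins and -0.02 for hnRNPs, so the sign of the SR median changed.

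**Figure D5:**
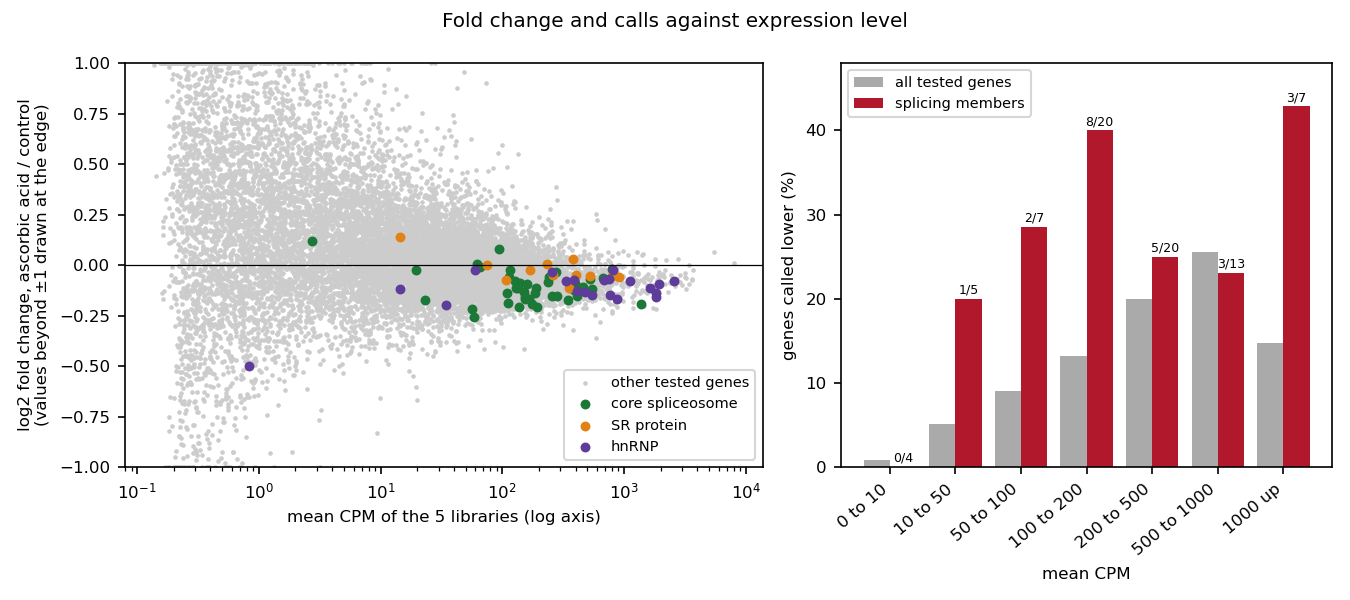
Left, log2 fold change against mean CPM (log axis) for tested genes, with splicing genes coloured by class and values beyond 1 drawn at the edge. Right, percent of genes that fell in each range of mean CPM, with the counts of splicing genes above their bars; all genes fell in 13.2% of cases from 100 to 200 CPM and the splicing genes in 8 of 20.

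Other genes of the splicing pathway, from a list of 124 symbols of which 118 were tested, gave 16 that fell, 4 that rose and 98 that were not called (median log2 fold change -0.08), against 5.76% of all tested genes that fell and 8.53% that rose. Of 14 genes for assembly of snRNPs, 4 fell, among them PRMT5, the arginine methyltransferase that modifies Sm proteins. PRMT5 went from 230.4, 215.6 and 222.5 CPM to 182.3 and 185.2 CPM (-0.28 ± 0.05, edgeR adjusted p = 0.000101). Its partner WDR77 (-0.17, adjusted p = 0.00834) and GEMIN4 of the SMN complex (-0.19, adjusted p = 0.00862) also fell in edgeR's test. Among 13 other U2, U5 and tri-snRNP proteins, USP39, a tri-snRNP protein, fell by 0.26 on the log2 scale (edgeR adjusted p = 0.000686) and SART1 fell by 0.16 (edgeR adjusted p = 0.0330), whereas PUF60, a U2AF-like factor, rose (0.19 ± 0.05, edgeR adjusted p = 0.00685).

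In the PRPF19 complex and catalytic-step group 3 of 18 fell, where 5.76% of all tested genes fell and 8.53% rose. These 3 were PLRG1 (-0.19, edgeR adjusted p = 0.00923), SNW1 (-0.17, adjusted p = 0.0195) and SLU7 (-0.18, adjusted p = 0.0276). Of 7 U6 LSm proteins LSM3 fell (-0.17, edgeR adjusted p = 0.0147). In the exon junction complex EIF4A3 (-0.18, edgeR adjusted p = 0.0370) and MAGOH (-0.16, adjusted p = 0.0341) fell while CASC3 rose (0.23 ± 0.05, adjusted p = 0.00109). The groups of EIF4A3 overlapped (256, 234.1 and 259.9 CPM against 238.7 and 203.7 CPM). SRPK1, the kinase that phosphorylates SR proteins, was the 1 gene called among 14 SR-like proteins and SR kinases and rose from a mean of 347 CPM to 393 CPM (0.18 ± 0.05, edgeR adjusted p = 0.00751). The helicase DDX39A rose (0.16 ± 0.05, edgeR adjusted p = 0.0420) as the 1 gene called among 11 helicases. Its groups overlapped (173, 182 and 199.7 CPM against 213 and 198.8 CPM), and DESeq2 did not call it (adjusted p = 0.0821). Of 31 other RNA-binding regulators 4 fell, led by CELF2 (-0.43 ± 0.09, edgeR adjusted p = 0.000833), SYNCRIP (-0.17, adjusted p = 0.00934) and KHDRBS3 (-0.28, adjusted p = 0.0153). None of 6 further minor-spliceosome genes was called, 0 of them had an unadjusted p below 0.05 in edgeR, and DESeq2 and limma-voom also called 0.

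The calls on LSM3, SNW1, SLU7, SART1, MAGOH, EIF4A3, GEMIN4, DDX39A, KHDRBS3, PUF60, PLRG1, WDR77 and SYNCRIP each ended in at least 1 fit that left out a library. Those on LSM3, SNW1, SLU7, SART1, MAGOH and EIF4A3 also ended with library totals (adjusted p of 0.0685 to 0.132). Among the alternatives run, the calls on PRMT5, USP39, CELF2, CASC3 and SRPK1 ended only against a fold of 1.2.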

How the data were processed

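Poly(A) RNA of 3 control and 2 ascorbic acid libraries was measured as counts per gene symbol. The deposited counts are whole numbers. Per the submitters' processing notes the tools were Trimmomatic 0.39 for trimming, STAR, featureCounts and DESeq2, on hg38 (GRCh38). No source used here gives the annotation, the strand setting or the handling of shared reads. Columns were matched to samples by name (prefix "con" for control, "vc" for vitamin C).

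After filterByExpr and TMM scaling (factors 0.984 to 1.03), the groups were tested two-sided with glmQLFit (robust) and glmQLFTest of edgeR 4.0.16 (R 4.3.3), with no covariates. P-values were adjusted by Benjamini-Hochberg over the 15271 tested genes, and genes below 0.05 were called; intervals are 95% intervals, and CPM uses TMM-scaled totals. The biological coefficient of variation was 4.6%. The test was run on simulated data first. Values per kb use the merged exon length of GENCODE 29 on GRCh38, which matched 26218 of 28278 symbols. Promoter windows are those of RefSeq (GRCh38.p14). Alternatives were DESeq2 1.42.0, limma-voom (limma 3.58.1), other scalings and filters, the replicate number as a block, a fold of 1.2, removal of the expression trend (cyclic loess on log CPM, tested with limma in place of the count model), halved counts and leaving out each library. Removal of GC and length trends (mgcv 1.9.3) was chosen after seeing the data.

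The members and lists were chosen with earlier results of these data known. Genes named are up to 8 called members of each class or particle by smallest p, the highest member of each per length, a panel (SF3B1, U2AF1, U2AF2, PRPF8, SNRNP200, SNRNP70, SNRPB, SNRPN, SRSF1, SRSF2, SRSF3, SRSF7, HNRNPA1, HNRNPA2B1, HNRNPC, HNRNPH1, HNRNPH2, HNRNPK and HNRNPU), those beside the limit of 20 counts, and up to 3 called genes of each other list. SNRPE, SNRPD2, SNRPC, SNRPA, SF3B3, PRPF31, the other SRSF genes, HNRNPDL and HNRNPCL1 were named after their values were seen.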

Additional observations from a re-analysis of the deposited data

How the results depend on the processing

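Over 16 alternatives and 1212 values of tested splicing genes, the sign of the log2 fold change switched 82 times, in 0 cases where either value passed the threshold, and 0 splicing genes were called higher in any. Of the 22 called genes, DESeq2 kept 21, limma-voom 22, library totals 9 and the trend-removed fit 4, and 3 kept their call in each leave-one-out fit; SF3B6 and SNRNP27 lost theirs only against a fold of 1.2. Of the uncalled genes 17 passed in at least 1 alternative.

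With library totals, under which the median log2 fold change of all genes was 0.045 (0.003 as reported), 2.55% of all genes fell and 11.2% rose, and 9 splicing genes fell (7 core, 2 hnRNP), while 7 other splicing genes rose and 8 fell. The 5 CPM filter left 4 hnRNPs and 10 other genes lower (5.06% of all genes fell). Against a fold of 1.2, 286 of all genes and 0 splicing genes were called (0 core, 0 hnRNP, 0 other higher, 0 other lower). With the expression trend removed, 1426 of all genes were called (3.34% of all fell) and 4 splicing genes fell (4 core, 0 hnRNP), with 4 other genes lower. With GC and length trends removed 29 splicing genes fell, and 8 other genes rose and 28 fell. In that fit 9.7% of all genes fell and 10.9% rose, against 5.76% and 8.53% as reported. Leaving out 1 library at a time gave 1180 to 2047 calls over all genes, 6 to 19 splicing genes lower (6 to 15 core, 0 to 1 SR, 0 to 4 hnRNP), and other splicing genes 3 to 4 higher and 6 to 14 lower; the fewest, 6, came without control 1.

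Replicate numbers were shared by 2 pairs of libraries, whose deviations from their group means correlated at 0.0247 and 0.0109. With 2 treated libraries the deviations of each mirror those of the other. These values therefore cannot decide whether libraries with the same number share a culture or batch. With the replicate block 21 splicing genes fell (14 core, 0 SR, 7 hnRNP), and 4 other splicing genes rose and 17 fell. Of all genes 1880 were called (5.26% fell). Replicate number 3 occurs only among the controls, so control 3 did not contribute to the fold changes of this fit. For SNRPD1 the log2 fold change was -0.192 both with the block and without control 3. Among the hnRNPs HNRNPF lost its call with the block (edgeR adjusted p = 0.0566) and HNRNPDL gained one (0.0350).

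The log2 fold changes whose sign switched were all of uncalled genes, and are given here for genes named above. With the trend removed they were 0.0224 for SRSF1, 0.0192 for SRSF2, 0.0263 for SRSF3, 0.018 for SRSF7, 0.0111 for SRSF10, 0.0291 for SRSF5, 0.0012 for U2AF2, 0.0609 for SF3B3, 0.0116 for SNRNP200, 0.0006 for HNRNPA2B1, 0.0166 for HNRNPA1, 0.0556 for HNRNPH1 and -0.0708 for HNRNPA1P10. Library totals gave 0.0199 for SRSF5, 0.0232 for SF3B3 and 0.0184 for HNRNPH1, and the 5 CPM filter 0.0025, 0.0059 and 0.0008. GC and length correction gave 0.0223 for SRSF5, 0.0271 for HNRNPH1 and -0.0412 for SNRNP25. DESeq2 gave -0.0032 for SRSF4, -0.0079 for SRSF8 and -0.0046 for SNRNP25, and median-of-ratios factors -0.0009, -0.0057 and -0.0019. Leaving out 1 library at a time gave -0.1427 to 0.0331 for SRSF10, -0.0137 to 0.0649 for SRSF6, -0.0535 to 0.0116 for SRSF5, -0.0254 to 0.0513 for SRSF4, -0.0349 to 0.0257 for SRSF8, -0.0753 to 0.0271 for SF3B3, -0.0075 to 0.155 for PRPF31, -0.109 to 0.0983 for SNRNP25, -0.0697 to 0.0123 for HNRNPH1 and -0.1289 to 0.156 for HNRNPA1P10. Not all switched values were near zero. HNRNPA3P1, a pseudogene symbol at a control mean of 0.438 CPM, had a log2 fold change of 0.068 in edgeR's test. It had -0.263 with the trend removed and -0.394 without treated library 2. The cause of these switches was not tested.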
